A study of Mus musculus with 8 samples.

Results

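CD4 single-positive (CD4SP) Foxp3- thymocytes from E2A and HEB knockout mice (KO, by their label) were set against the same cells from wild-type (WT) mice, with 2 arrays of each genotype. These are 4 of the 8 arrays in the series; the other 4 hold CD4+Foxp3+ thymocytes of both genotypes. The KO mice carried E2Af/f, HEBf/f, ER-Cre and Foxp3KI, and the WT mice carried Foxp3KI. Mice of both kinds were given 3 mg of tamoxifen by mouth 4 times over 10 days, which lets the ER-Cre recombinase delete the floxed alleles. Because only the KO line is labelled with ER-Cre, loss of E2A and HEB and the presence of an active Cre cannot be told apart. Age, sex, littermate status and the number of mice behind each array are not given in the labels, so the 2 arrays of a group may differ for technical reasons only, and p-values measure the spread between arrays. The labels place the WT arrays and the KO arrays at separate positions of one numbered set, so position and genotype cannot be told apart either.

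E proteins are basic helix-loop-helix transcription factors that bind the E-box, CANNTG, as dimers. In the thymus the products of Tcf3 (E2A) and Tcf12 (HEB) act from early T lineage commitment to the single-positive stages, and they are known for restraining premature maturation and innate-like effector fates. Id proteins, chiefly Id2 and Id3, pair with E proteins and prevent them from binding DNA. CD4SP thymocytes are the cells that have passed positive selection on MHC class II and are about to leave the thymus as naive CD4 T cells, and Foxp3, the lineage factor of regulatory T cells, marks a minor fraction of them.

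Expression was read on Illumina bead arrays, on which each probe is a short oligonucleotide carried by many beads. Levels below are background-corrected, quantile-normalised signals on the log2 scale, and each difference is KO minus WT. A probe is called where the adjusted p from limma is under 0.05. Of 25697 probes, 12127 were detected on at least 2 of the 4 Foxp3- arrays and 10458 on all 4, and 13526 detected on at least 2 of all 8 arrays were tested. Between 11462 and 11869 probes were detected on the KO arrays and between 11810 and 12009 on the WT arrays. The 2 KO arrays correlated at r = 0.9945 across probes and the 2 WT arrays at r = 0.9957. A gene with several probes is represented by its brightest probe, which gave 9137 genes.

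The 2 genotypes differed on 2862 probes (21.2% of those tested), of which 1395 were higher in KO (10.3%) and 1467 lower (10.8%). Among genes, 1895 were called (20.7%), 1070 of them higher (11.7%) and 825 lower (9.03%). The split between higher and lower depended on scaling: 48.7% of the called probes were higher in KO, against 36.4% when arrays were scaled to a common median. At 2-fold or more, 333 probes were called higher (2.46%) and 286 lower (2.11%). In genes this was 417 (4.56%), with 255 higher (2.79%) and 162 lower (1.77%), and at 4-fold or more 49 genes were higher and 11 lower. Fold sizes of dim probes rest on the background correction. Without it the median difference of the 255 higher genes was 0.78 in place of 1.38, that of the 162 lower genes was -0.75 in place of -1.25, and all 417 kept their direction. Each array also carried much of the count, since without 1 of the 4 arrays between 1115 (WT replicate 1 left out) and 1410 (KO replicate 2 left out) probes were called; the counts were 1308 without KO replicate 1 and 1340 without WT replicate 2.

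Some genes crossed the detection threshold between the genotypes, which by itself is no test of a difference. On both KO arrays and neither WT array 180 genes were detected, 119 of them called. On both WT arrays and neither KO array 162 genes were detected, 83 of them called. Over all genes 20.7% were called, but detection and calls rest on the same signals. Where a gene was not detected on either array of the dimmer genotype, its fold is given as a lower bound, computed against the higher of that array's detection floor and the gene's own signal.

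Promoter windows of 5 genes that the results turn on are shown first: Ifng, Nkg7 and Cxcr3, effector genes that were higher in KO cells, and Id3 and Top2a, which were lower. Each is the 250 bases before the transcription start, 5′ to 3′ on the gene's own strand, from RefSeq (GRCm38.p6), with matches to CANNTG in capitals. The Ifng window lies at chr10:118440796-118441045 (plus strand), Nkg7 at chr7:43436888-43437137 (plus), Cxcr3 at chrX:101734148-101734397 (minus), Id3 at chr4:136143572-136143821 (plus) and Top2a at chr11:99024190-99024439 (minus).
Ifng: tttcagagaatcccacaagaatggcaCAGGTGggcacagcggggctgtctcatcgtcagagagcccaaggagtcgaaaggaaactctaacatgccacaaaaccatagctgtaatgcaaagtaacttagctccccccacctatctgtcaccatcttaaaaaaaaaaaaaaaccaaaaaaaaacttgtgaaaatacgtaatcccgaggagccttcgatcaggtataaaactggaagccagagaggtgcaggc
Nkg7: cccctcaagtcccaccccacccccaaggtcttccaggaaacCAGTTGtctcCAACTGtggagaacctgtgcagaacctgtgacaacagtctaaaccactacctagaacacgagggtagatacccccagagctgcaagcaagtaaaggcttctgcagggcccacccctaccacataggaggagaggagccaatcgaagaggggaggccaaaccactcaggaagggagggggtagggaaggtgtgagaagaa
Cxcr3: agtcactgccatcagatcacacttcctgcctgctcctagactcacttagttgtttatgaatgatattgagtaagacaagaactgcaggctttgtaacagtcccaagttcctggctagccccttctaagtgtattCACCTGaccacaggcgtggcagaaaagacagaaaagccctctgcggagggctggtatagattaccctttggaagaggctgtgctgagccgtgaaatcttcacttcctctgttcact
Id3: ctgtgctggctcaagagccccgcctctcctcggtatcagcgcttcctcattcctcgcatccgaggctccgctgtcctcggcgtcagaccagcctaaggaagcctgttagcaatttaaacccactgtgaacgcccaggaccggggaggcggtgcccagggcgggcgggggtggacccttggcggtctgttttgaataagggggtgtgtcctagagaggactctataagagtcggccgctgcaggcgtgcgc
Top2a: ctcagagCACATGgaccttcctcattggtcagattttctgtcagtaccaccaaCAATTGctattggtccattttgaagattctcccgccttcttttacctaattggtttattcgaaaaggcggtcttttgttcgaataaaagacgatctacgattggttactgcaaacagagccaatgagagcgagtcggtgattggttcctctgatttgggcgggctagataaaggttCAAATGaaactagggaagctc

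The Ifng window holds 1 match, CAGGTG, and the Cxcr3 window holds 1, CACCTG, which is CAGGTG read on the other strand. Nkg7 has 2 matches, Top2a has 3 and Id3 has 0. CANNTG reads as CANNTG on both strands, so each match was counted once. A match of this kind is common: 66.0% of the 27025 promoter windows of the same length held at least 1. Among measured genes with a window 57.4% of 7506 held CANNTG, among those called higher in KO at 2-fold or more 68.7% of 195, and among those called lower at 2-fold or more 59.1% of 137. For CAGCTG, which is its own reverse complement, the shares were 12.8% of all windows, 11.2% of measured genes, 15.9% of the higher genes and 10.9% of the lower genes. For CAGGTG or CACCTG they were 17.1%, 15.0%, 15.9% and 10.9% in the same order. These shares are descriptions of 1 window per gene and carry no test.

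Tcf12, the gene of HEB, was lower in KO cells, with signals of 6.86 and 6.75 on the KO arrays and 7.67 and 7.57 on the WT arrays. The arrays of the 2 genotypes did not overlap, and the difference was -0.81 ± 0.13 (SE, adjusted p = 0.00388), a 1.76-fold lower signal. The probe stayed detected on both KO arrays; whether it lies inside the floxed part is not given in the sources used here, so it is a limited check of the deletion. Tcf3 was not analysed here. Foxp3 was detected on none of the 4 Foxp3- arrays (4.29 and 4.29 in KO, 4.27 and 4.52 in WT), while Foxp3+ arrays averaged 9.40 in KO and 9.83 in WT.

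Of 6 measured members of the E protein and Id family 2 were called, both lower in KO, beside 9.03% of all genes called lower. Id3, an inhibitor of E proteins whose gene is itself an E protein target, had 7.58 and 7.39 in KO cells, against 8.59 and 8.70 in WT cells. It fell by 1.16 ± 0.19 on the log2 scale (SE, adjusted p = 0.00499). Id2 had 10.41 on both KO arrays and 9.77 and 9.95 on the WT arrays, a difference of 0.55 that missed the threshold (adjusted p = 0.0569). Tcf4, the gene of the third E protein E2-2, differed by -0.42 (adjusted p = 0.326), and Id1 by -0.22 (adjusted p = 0.3).

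Genes reported as E protein targets in thymocytes went both ways: of 19 measured, 6 were called higher and 3 lower, beside 11.7% and 9.03% of all genes, with a median difference of 0.14, against 0.02 over all genes. Cxcr4, a chemokine receptor that holds thymocytes in the cortex, was 2.79-fold higher (10.42 and 10.45 in KO, 8.98 and 8.93 in WT, adjusted p = 0.00016). Il7r, the receptor chain for the survival cytokine IL-7, was 1.77-fold higher (12.77 and 12.92 in KO, 12.06 and 11.97 in WT, adjusted p = 0.00255). Neither gene's arrays overlapped between genotypes. Rag1 and Gata3 differed by -0.11 and -0.05, and neither was called. The 3 lower calls were 2, 0, 0 and 1 without KO replicate 1, KO replicate 2, WT replicate 1 and WT replicate 2.

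**Figure D1:**
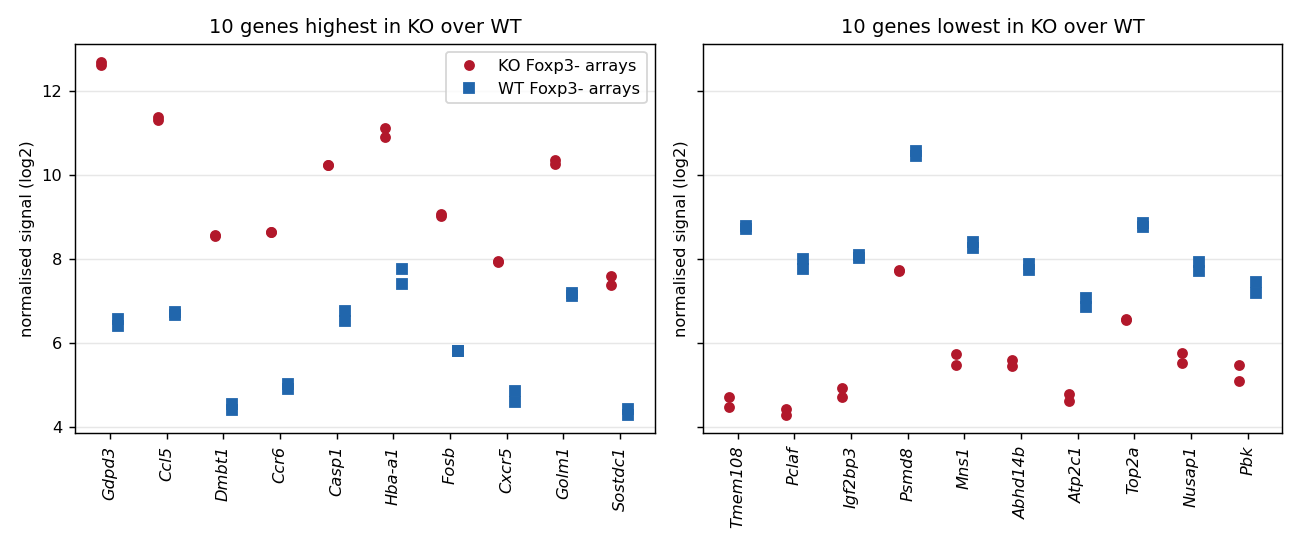
Normalised log2 signal of 20 called genes, the 10 most raised and the 10 most lowered in KO cells, 1 point per array (2 KO arrays left of 2 WT arrays for each gene). In all 20 genes both KO points lie on one side of both WT points. The genes were picked by their difference between genotypes, so this separation is no separate result. Gdpd3 has the widest gap, 12.66 on average in KO cells against 6.48 in WT cells.

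The most raised gene was Gdpd3, a lysophospholipase D, with signals of 12.70 and 12.62 in KO cells and 6.40 and 6.57 in WT cells, a 72.3-fold difference (6.18 ± 0.11 log2, SE, adjusted p = 1.5e-07). Ccl5, a chemokine that draws effector T cells, followed with 11.37 and 11.32 in KO cells and 6.73 and 6.67 in WT cells, 25-fold higher. Ccr6, the receptor for CCL20, had 8.63 and 8.63 in KO cells, against 5.03 and 4.90 in WT cells, and was 12.7-fold higher. The 2 KO arrays lay close together for each of these genes, and all KO signals were above all WT signals. Casp1, the inflammasome protease that matures IL-1β and IL-18, was 12.1-fold higher (10.23 and 10.23 in KO, 6.52 and 6.76 in WT). Dmbt1, a scavenger receptor family member, was not detected on either WT array and was at least 14.1-fold higher, and Sostdc1, a BMP and Wnt antagonist, was likewise at least 6.71-fold higher. Fosb, Cxcr5 and Golm1 were 9.43-, 9.33- and 8.85-fold higher. Cxcr5 was detected on only 1 of the WT arrays, so its fold rests partly on undetected signal. The other gene among the 10, Hba-a1, encodes α-globin and is taken up with the markers of other cells below. Without background correction the differences of these 10 genes ran between 1.30 (Sostdc1) and 5.15 (Gdpd3).

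At the other end, Tmem108, a transmembrane protein gene, was not detected in KO cells (4.71 and 4.46) and had 8.79 and 8.71 in WT cells, at least 15.6-fold lower in KO. Pclaf, a PCNA-binding factor of DNA replication, was also not detected in KO cells (4.27 and 4.42), with 7.75 and 8.0 in WT cells, at least 8.48-fold lower. Igf2bp3, an RNA-binding protein gene of the fetal programme, was 9.45-fold lower (4.70 and 4.93 in KO, 8.01 and 8.10 in WT). It was detected on only 1 of the KO arrays, so this fold rests partly on undetected signal. Its second probe, not detected in KO cells, was at least 7.63-fold lower. For each of these genes both WT arrays stood above both KO arrays. Psmd8, a subunit of the proteasome lid, was 6.96-fold lower, Mns1, a structural gene of meiotic and ciliated cells, 6.65-fold lower, and Abhd14b, a lysine deacetylase, 4.88-fold lower. Atp2c1, a Golgi calcium pump, was at least 4.5-fold lower by its representative probe, but its second probe differed by -0.24 and was not called. Top2a, the DNA topoisomerase of dividing cells, was 4.76-fold lower, and Nusap1 and Pbk, a spindle protein and a mitotic kinase, were 4.51- and 4.1-fold lower. Nusap1 lost its call without KO replicate 1 (adjusted p = 0.0679) or WT replicate 1 (0.0698), and so did Pbk (0.0727 and 0.0732). Without background correction the differences of the 10 lowest genes ran between -2.35 (Psmd8) and -0.87 (Atp2c1).

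Genes of innate-like T cells and NKT cells were higher in KO cells as a group. Of 15 measured members 13 were called higher and none lower, against 11.7% of all genes called higher. Fewer members were called higher when any single Foxp3- array was left out. The list's median difference was 1.51, against 0.02 over all genes, and was 0.80 without background correction. Ifng, the T helper 1 cytokine, had 8.22 and 8.33 in KO cells and 5.28 and 5.37 in WT cells, 7.76-fold higher (adjusted p = 1.25e-05). Its second probe gave a difference of 3.33. Cxcr3, the chemokine receptor of effector T cells, had 9.57 and 9.46 in KO cells and 6.72 and 7.05 in WT cells, 6.2-fold higher. Nkg7, a cytotoxic granule membrane protein, had 11.07 and 11.04 in KO cells and 8.72 and 8.58 in WT cells, 5.3-fold higher (adjusted p = 0.00524). Each of these genes was detected on both WT arrays, so the folds are not bounds. Il18r1, the receptor chain for IL-18, was 4.82-fold higher, and Il18rap, its partner chain, was detected on both KO arrays and neither WT array (5.39 and 5.53, with 4.43 and 4.38 in WT).

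The transcription factors of these lineages moved in the same direction. Tbx21, the gene of T-bet, had 7.61 and 7.28 in KO cells and 5.87 and 6.01 in WT cells (difference 1.51, adjusted p = 0.00387). Eomes, its relative, had 5.48 and 5.67 in KO cells and was not detected in WT cells (4.63 and 4.43), at least 1.78-fold higher, a call that was lost without any 1 of the 4 arrays (adjusted p between 0.0539 and 0.0877). The cytokine gene Il4 was higher by 0.97 (adjusted p = 0.0048) and the chemokine gene Xcl1 by 1.70 (adjusted p = 0.0143). The NK receptor genes were mixed: Klrk1 (NKG2D) was higher by 0.78 and Cd160 by 1.23, and Klrb1c (NK1.1) differed by -0.10. Klrd1 (CD94) had 10.27 and 10.49 in KO cells and 8.88 and 8.84 in WT cells. Its difference of 1.52 was not called (adjusted p = 0.116). The SE of 0.61 is pooled over all 8 arrays, and Klrd1 read 7.13 and 4.74 on the KO Foxp3+ arrays. Klrk1 was not called without KO replicate 2 (adjusted p = 0.0777) or WT replicate 1 (0.0925). Zbtb16, the gene of PLZF that defines NKT cells, was not analysed here.

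**Figure D2:**
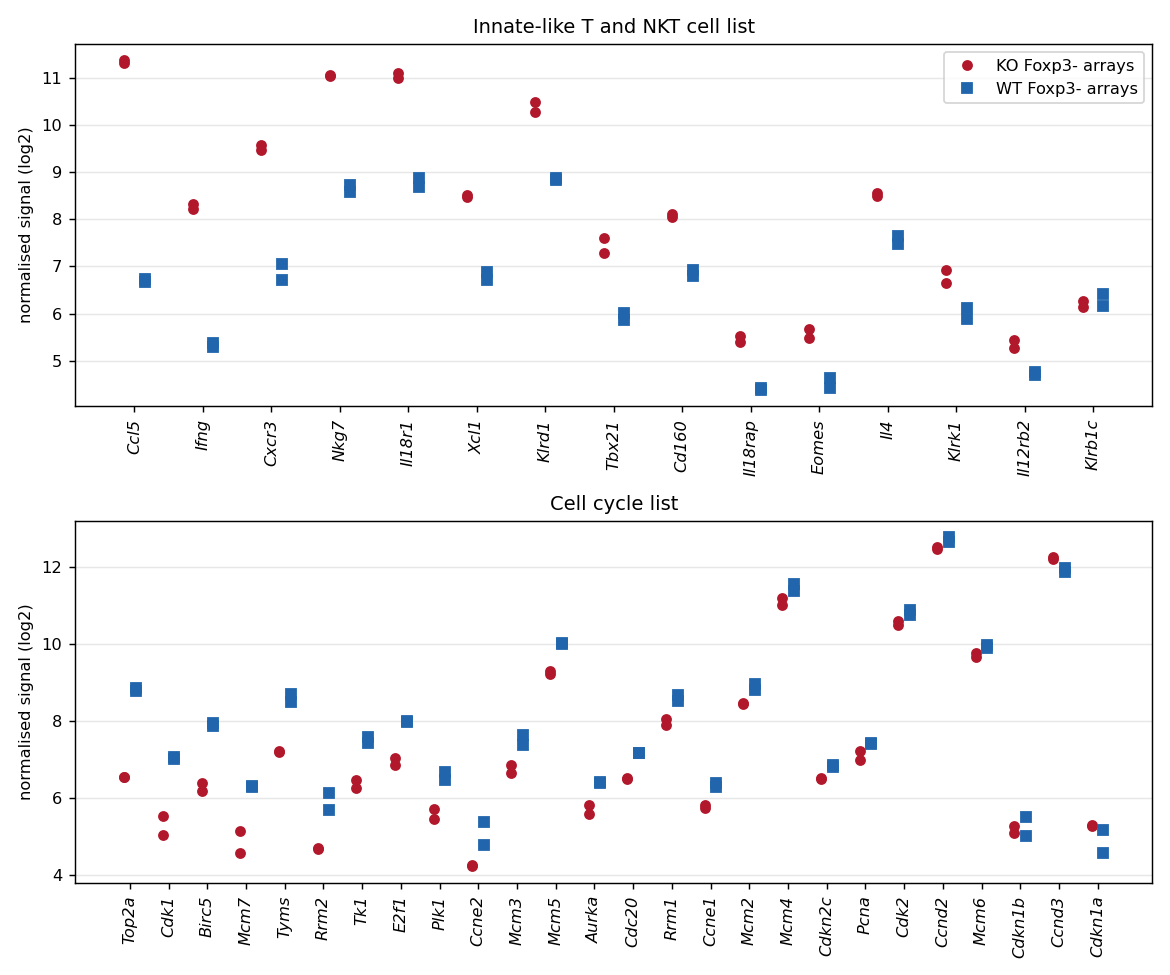
Normalised log2 signal of every measured member of the innate-like T and NKT cell list (top) and the cell cycle list (bottom), 1 point per array, KO arrays left of WT arrays, ordered by difference. In the top panel the KO arrays are higher in 14 of 15 genes by mean, and in the bottom panel they are lower in 24 of 26. Calls number 13 higher in the top panel and 17 lower in the bottom panel, beside 11.7% and 9.03% of all genes.

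Of 7 measured members of the CD8 and cytotoxic list 4 were called higher and 1 lower; the 4 were 2 without KO replicate 1, KO replicate 2 or WT replicate 1. Gzmk, a granzyme of memory-like T cells, had 7.30 and 7.40 in KO cells and was not detected in WT cells (4.32 and 4.30), at least 6.11-fold higher (adjusted p = 4.26e-06). Prf1, perforin, had 9.90 and 9.94 in KO cells and 8.74 and 9.15 in WT cells, 1.97-fold higher, a call lost without KO replicate 1 (adjusted p = 0.1), KO replicate 2 (0.101) or WT replicate 1 (0.152). Cd8b1, the CD8β chain, went the other way, with 9.67 and 9.76 in KO cells and 10.64 and 10.66 in WT cells. Its second probe differed by -0.39 and was not called (adjusted p = 0.271), and the call of the first was lost without any 1 of the 4 arrays (adjusted p between 0.076 and 0.105). Fasl, the death receptor ligand of cytotoxic T cells, was 4.23-fold higher (8.95 and 9.04 in KO, 6.91 and 6.92 in WT), and its receptor gene Fas was 1.56-fold lower (adjusted p = 0.0065, and 0.0594 without WT replicate 1). Among killer lectin and co-inhibitory receptors 5 of 12 measured members were called higher and none lower, with a median of 0.46. For this list and the cytotoxic one, the shares of all genes were 11.7% called higher and 9.03% lower. Lag3, an inhibitory receptor that binds MHC class II, was detected on both KO arrays and neither WT array (7.22 and 7.29, with 4.61 and 4.64 in WT), at least 5.74-fold higher. Of the 5 calls, 2 held without KO replicate 2 or WT replicate 1 and 3 without WT replicate 2.

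Many receptors that guide migration were higher in KO cells. Over all genes 11.7% were called higher and 9.03% lower. Among chemokine receptors, adhesion and egress genes 9 of 14 measured members were called higher and 1 lower (median 0.97), and the same counts, 9 and 1, came out without each of the 4 arrays in turn. Beside Ccr6 and Cxcr3, Cxcr5, the receptor that takes T cells into B cell follicles, had 7.96 and 7.92 in KO cells and 4.59 and 4.84 in WT cells. Its other probes were also called higher, by 2.62 and 0.84. Itgae, the αE integrin chain CD103, had 10.33 and 10.42 in KO cells and 7.82 and 7.81 in WT cells, 5.89-fold higher, and all 6 of its probes were called higher, at differences between 0.68 and 2.56. Cxcr6, a receptor of tissue-homing and NKT cells, had 7.88 and 8.28 in KO cells and 5.99 and 5.88 in WT cells. The integrin chains Itgb7 and Itgb1 were higher by 0.89 and 0.82, and Cd44, the hyaluronan receptor of activated T cells, by 1.05, although its second, undetected probe was not called. Ccr8 was the called lower member (9.07 and 9.02 in KO, 9.84 and 9.89 in WT), and Ccr7, the receptor that directs mature thymocytes to the medulla, differed by -0.40 without a call (adjusted p = 0.0877).

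Of 20 measured cytokine receptor genes 10 were called higher and 1 lower, with a median of 0.33, beside 11.7% of all genes called higher and 9.03% lower. The other 9 were not called. With any single Foxp3- array left out fewer were called higher, and the lower one, Il17ra, lost its call. Il10ra had 9.29 and 9.09 in KO cells and 7.08 and 7.06 in WT cells, 4.34-fold higher, and Il10rb, the other chain of the IL-10 receptor, was 2.31-fold higher. Ifngr1, the ligand-binding chain for interferon-γ, was 2.34-fold higher (9.75 and 9.79 in KO, 8.53 and 8.55 in WT), while Ifngr2 differed by -0.02. Il2rb and Il15ra, chains of the IL-2 and IL-15 receptors, were higher by 1.14 and 1.01, and Il2ra, the IL-2 receptor α chain of regulatory and activated cells, differed by 0.29 without a call. Of 16 JAK-STAT and SOCS genes 7 were called higher, 1 lower and 8 not (median 0.50, and 0.22 without background correction). Fewer of them were called higher when any single Foxp3- array was left out. The lower call was absent without KO replicate 2, WT replicate 1 or WT replicate 2. The feedback inhibitors led: Socs2 was 6.68-fold higher (7.94 and 8.14 in KO, 5.42 and 5.17 in WT), Cish 3.2-fold (11.33 and 11.23, with 9.63 and 9.58 in WT) and Socs3 2.99-fold (9.88 and 9.90, with 8.38 and 8.24 in WT). The genotypes' arrays were apart for all 3. Among the STAT genes, Stat4, which acts below the IL-12 receptor, was 2.18-fold higher, Stat3 was higher by 0.58 and Stat5a lower by 0.58.

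Many cell cycle genes were lower in KO cells. Of 26 measured members 17 were called lower and none higher, against 9.03% of all genes called lower, and the median was -0.69 (-0.36 without background correction). The count was 10, 11, 9 and 12 without KO replicate 1, KO replicate 2, WT replicate 1 and WT replicate 2. The G2 and mitosis genes Top2a (6.56 and 6.55 in KO, 8.77 and 8.85 in WT) and Cdk1 (5.05 and 5.54 in KO, 7.02 and 7.06 in WT) were 4.76- and 3.36-fold lower. Birc5, survivin, was 3.1-fold lower (adjusted p = 0.00722; 0.0505 without KO replicate 1 and 0.0508 without WT replicate 1), and all 3 of its probes were called lower. Tyms, thymidylate synthase, had 7.20 and 7.22 in KO cells and 8.50 and 8.71 in WT cells, a fall of 1.39 (adjusted p = 0.000263). Of the replicative helicase genes, Mcm7, Mcm3, Mcm5 and Mcm2 were called lower, and Mcm4 and Mcm6 differed by -0.36 and -0.22 without a call. The D-type cyclins Ccnd2 and Ccnd3, which drive entry into the cycle, differed by -0.22 and 0.31, neither called, and the inhibitors Cdkn1a and Cdkn1b by 0.42 and -0.08. Levels in the sort are averages, so fewer cycling cells and less of these RNAs per cell cannot be told apart, and the same holds for every gene group here.

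**Figure D3:**
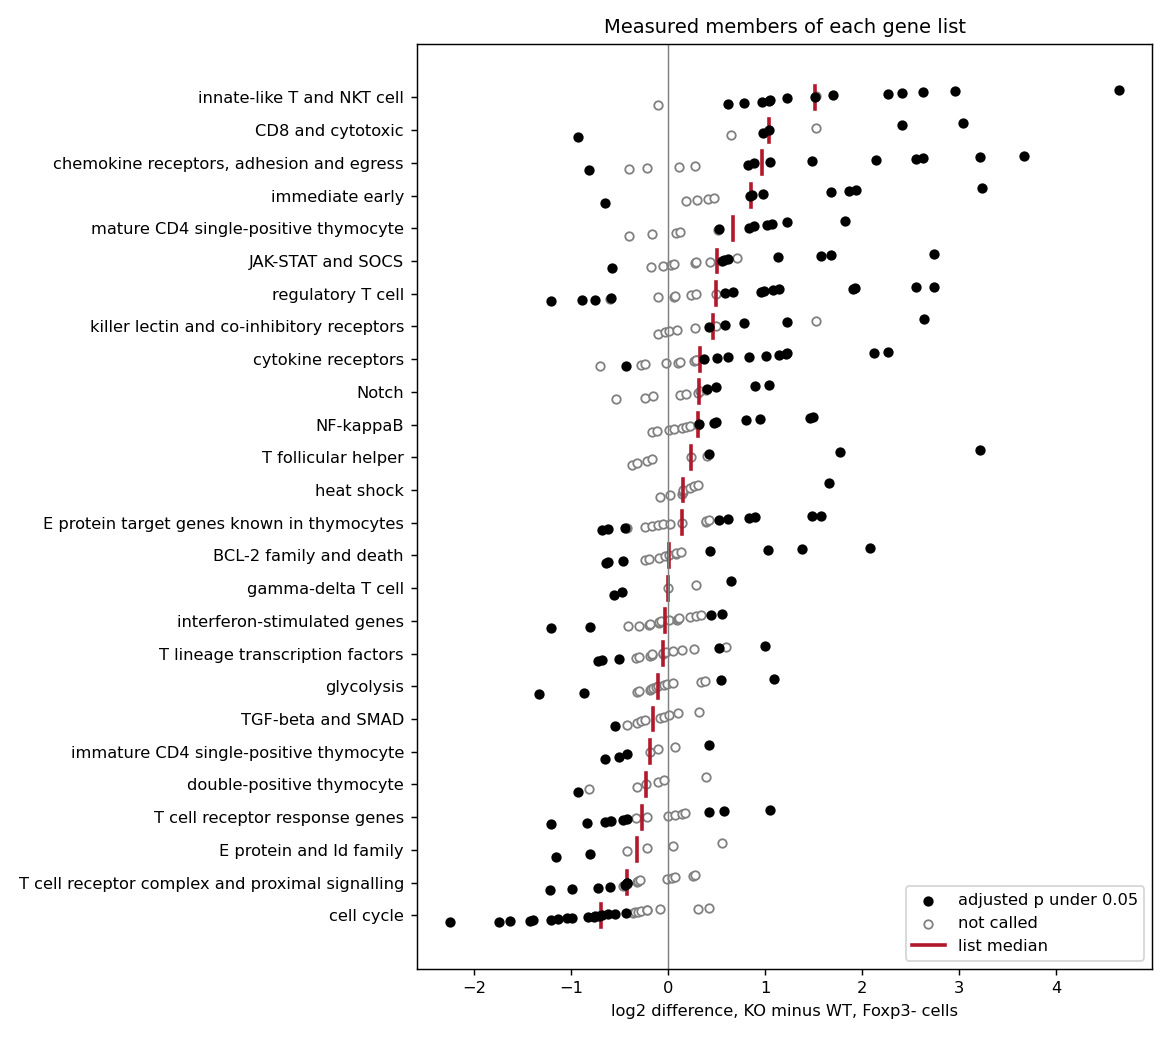
Log2 difference, KO minus WT, of every measured member of 26 gene lists in Foxp3- cells; filled points are called, open points are not, and bars are list medians. The innate-like T and NKT cell list has the highest median, 1.51, and the cell cycle list the lowest, -0.69; the median over all genes is 0.02.

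Parts of the T cell receptor (TCR) machinery were lower. Over all genes 9.03% were called lower and 11.7% higher. Of 17 measured members of the TCR complex and proximal signalling 7 were called lower and none higher, with a median of -0.42. Without 1 array the number fell to 2 (KO replicate 1), 3 (KO replicate 2), 2 (WT replicate 1) and 1 (WT replicate 2). The firmest was Fyn, a Src family kinase, with 8.47 and 8.45 in KO cells and 9.50 and 9.40 in WT cells, 1.99-fold lower (adjusted p = 0.000648); its dimmer second probe differed by -0.17. Cd3g and Cd3e, chains of CD3, were 1.51- and 1.37-fold lower; Cd3g was not called without KO replicate 1 (adjusted p = 0.0656) or WT replicate 2 (0.069), nor Cd3e without any 1 of the 4 arrays (between 0.0631 and 0.104). Zap70 and Lat, the kinase and the adaptor below CD3, differed by 0.28 and 0.26 and were not called. Genes induced by TCR signals split, with 3 of 16 called higher and 6 lower; without 1 array 3 or 4 were lower, and 2 (KO replicate 1 left out) or 1 (each other array) higher. Egr2 had 9.30 and 9.39 in KO cells and 10.10 and 10.27 in WT cells, and Egr1 had 11.93 and 11.81 in KO cells and 12.52 and 12.53 in WT cells, 1.79- and 1.57-fold lower. Tnfrsf9 (4-1BB) was 2.32-fold lower. Nfatc1 and Cd69 differed by 0.17 and 0.07 without a call.

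Several markers of the mature stage were higher in KO cells. Over all genes 11.7% were called higher and 9.03% lower. Of 12 measured markers of mature CD4SP thymocytes 7 were called higher and none lower (median 0.67), and 6 were called without each of the 4 arrays. Ly6c1, a surface antigen of late single-positive and memory cells, had 11.31 and 11.08 in KO cells and 9.30 and 9.44 in WT cells, 3.53-fold higher. The MHC class I genes H2-D1 and H2-K1, which rise as thymocytes mature, were 2.1- and 2.03-fold higher. Klf2, which controls thymic exit, had 12.60 and 12.70 in KO cells and 12.09 and 12.18 in WT cells, with a call lost without any 1 of the 4 arrays (adjusted p between 0.0607 and 0.112). Of 7 measured markers of the immature stage 3 were called lower, Egr1, Sox4 and Cd5, and 1 higher, Pdcd1. Sox4 and Cd5 passed narrowly (adjusted p = 0.0494 and 0.0468); Sox4 was not called without any 1 of the 4 arrays (between 0.0784 and 0.247), and Cd5 was called only without KO replicate 1 (0.0465). Pdcd1 likewise was called only without KO replicate 1 (0.0485). Cd69, Satb1 and Rag1 were not called. Among T lineage transcription factors 2 of 17 were called higher and 3 lower, beside 20.7% of all genes called; without 1 array, 1 was called higher and 1 or 2 lower. Ikzf1 (Ikaros) was 1.65-fold lower by its bright probe, with a second probe at 0.59 that was not called, and Lef1 was 1.6-fold lower by one probe and lower by 0.94 by the other, the first losing its call without KO replicate 2 (adjusted p = 0.117), WT replicate 1 (0.104) or WT replicate 2 (0.0966). Bcl11b, Gata3, Zbtb7b (ThPOK) and Foxp1 differed by between -0.05 and 0.05 and were not called.

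Some genes of regulatory T cells were higher although Foxp3 was not detected. Of 21 measured members 10 were called higher and 4 lower, beside 11.7% and 9.03% of all genes. The list's median was 0.49 (0.19 without background correction). When any single Foxp3- array was left out, fewer members were called in each direction. Nrp1, neuropilin-1, had 9.30 and 9.44 in KO cells and 7.39 and 7.49 in WT cells, 3.8-fold higher. Nt5e, the ectoenzyme CD73 that makes adenosine, had 10.03 and 10.08 in KO cells and 8.25 and 8.03 in WT cells, 3.77-fold higher. Together with Socs2 and Itgae these were the members with the widest differences, and both Nrp1 probes and both Nt5e probes were called. Il10 (4.96 and 5.11) and Ebi3 (5.27 and 5.54), 2 cytokine genes, were detected on both KO arrays and neither WT array. The called lower members were Tnfrsf9, Tnfrsf4 (OX40), Gpr83 and Ikzf4, at differences between -1.21 and -0.59. Tnfrsf18 (GITR) and Il2ra, which define regulatory cells at the surface, were not called, and Ctla4 was 1.5-fold higher with its call lost without KO replicate 2 (adjusted p = 0.127), WT replicate 1 (0.137) or WT replicate 2 (0.0732).

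Of 12 measured immediate early genes 7 were called higher and 1, Egr1, lower (median 0.85), beside 11.7% and 9.03% of all genes. Leaving out any single Foxp3- array lowered the number called higher. Fosb had 9.07 and 9.03 in KO cells and 5.81 on both WT arrays, Fos had 11.68 and 11.71 in KO cells and 9.88 and 9.76 in WT cells, and Klf6 had 11.33 and 11.46 in KO cells and 9.54 and 9.38 in WT cells. Both KO arrays stood above both WT arrays for each of them. In the NF-κB list 7 of 15 were called higher, none lower and 8 not (median 0.31), and 3 or 4 were called higher without any 1 of the 4 arrays. Tnfaip3 (A20), an inhibitor of the pathway, had 10.85 and 10.90 in KO cells and 9.35 and 9.42 in WT cells, 2.81-fold higher. Nfkbib, which encodes an inhibitory IκB protein, was 2.75-fold higher (7.60 and 7.59 in KO, 6.23 and 6.04 in WT), and Nfkbia differed by 0.01.

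Some markers of other cells moved with genotype, while others, such as those of B cells, were not called. Among all genes 11.7% were called higher and 9.03% lower. Haemoglobin α RNA was plain in KO cells: Hba-a1 had 11.13 and 10.90 in KO cells and 7.77 and 7.40 in WT cells, 10.8-fold higher. The summed intensity of the 2 measured of 4 listed erythroid markers was 1952 to 2276 in KO cells, against 188.4 to 240.1 in WT cells. Nearly all of that sum was Hba-a1 itself. Alas2, an erythroid haem synthesis gene, was detected on both KO arrays and neither WT array (5.0 and 5.37 in KO, 4.40 and 4.25 in WT), with a call lost without any 1 of the 4 arrays (adjusted p between 0.0679 and 0.175). MHC class II genes, which mouse T cells do not make, were low but higher in KO cells. H2-Ab1 had 7.12 and 7.25 in KO cells and 5.75 and 5.55 in WT cells, with 3 of its 4 probes called, and H2-Aa and H2-Eb1 were 2.8- and 2.43-fold higher. Their calls were lost without any 1 of the 4 arrays for H2-Ab1 (adjusted p between 0.051 and 0.0671) and H2-Aa (0.0563 to 0.0793), and without KO replicate 1 or WT replicate 2 for H2-Eb1 (0.0584 and 0.0599). Over 4 measured of 6 listed dendritic cell markers 3 were called higher (0 or 1 without 1 of the 4 arrays), and their sum was 840.0 to 864.8 in KO cells, against 513.3 to 529.0 in WT cells. Most of the dendritic cell sum was Cd74, the measured member that was not called. Lyz2, a lysozyme of macrophages, had 6.34 and 6.18 in KO cells and 5.12 and 4.65 in WT cells. Its second probe was not called (adjusted p = 0.052). Cd14 was detected on none of the 4 arrays.

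For the marker lists below, the shares of all genes were again 11.7% called higher and 9.03% lower. The 2 measured B cell markers of 5 listed were not called and summed to 94.87 to 151.0 in KO cells and 80.25 to 87.43 in WT cells. The 4 measured NK or NKT cell markers of 6 listed, 2 of them called higher and 1 without any 1 of the 4 arrays, summed to 3498 to 3673 in KO cells, against 934.2 to 1003 in WT cells. Most of the NK or NKT cell sum was Nkg7 and Klrd1, of which Klrd1 was not called. Markers of double-positive thymocytes, 5 of 8 measured, summed to 937.2 to 1022 in KO cells, against 1755 to 1766 in WT cells. Most of the double-positive sum was Cd8b1, the called one, at 813.3 to 869.3 in KO cells and 1596 to 1617 in WT cells. Dntt, Rag1 and Arpp21 differed by -0.82, -0.11 and -0.04 and Ptcra by 0.39, none of them called. T cell markers, 5 of 6 measured, summed to 37920 to 39170 in KO cells, against 44750 to 45350 in WT cells; Cd3e, Cd3g and Cd5 were called lower and Thy1 higher, the call of Thy1 being lost without any 1 of the 4 arrays (adjusted p between 0.0835 and 0.136). Cd4 itself had 8.20 and 8.17 in KO cells and 8.63 and 8.61 in WT cells (adjusted p = 0.147). Its SE of 0.19 is pooled over all 8 arrays, and Cd4 read 8.44 and 7.79 on the KO Foxp3+ arrays. Zbtb7b differed by -0.02. Xist, expressed in females, was lower in KO (5.46 and 5.54, with 6.91 and 7.39 in WT, adjusted p = 0.000546), while the Y-linked Eif2s3y was bright on all 4 arrays (9.99 and 9.97 in KO, 9.38 and 9.44 in WT). The part of other cells and of sex in the gene groups above was not tested.

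**Figure D4:**
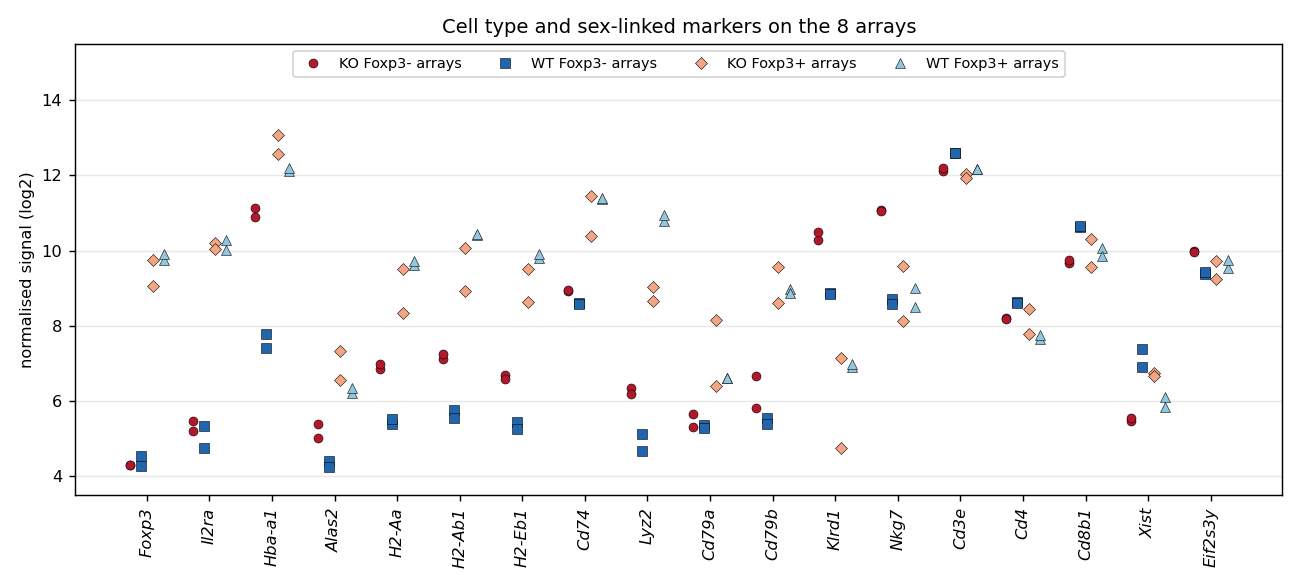
Normalised log2 signal of cell type and sex-linked marker genes on all 8 arrays, 1 point per array, in the order KO Foxp3-, WT Foxp3-, KO Foxp3+ and WT Foxp3+ for each gene. Foxp3 is at 4.52 or below on all 4 Foxp3- arrays, Hba-a1 and the MHC class II genes are higher on KO Foxp3- than on WT Foxp3- arrays, and they are higher still on the Foxp3+ arrays.

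In Foxp3+ cells fewer genes were called between the genotypes. There were 387 (4.24%), 159 of them in the same direction as in Foxp3- cells (1.74% of all genes) and 22 in the opposite direction (0.241%). A fit of the difference itself, meaning the effect of KO in Foxp3+ cells less its effect in Foxp3- cells, called 713 probes (5.27%) and 490 genes (5.36%). The KO Foxp3+ arrays agreed less well with each other (r = 0.9883) than the other replicate pairs, and its part in that count was not tested; without 1 of the Foxp3+ arrays the interaction called 1099 probes (KO replicate 1), 936 (KO replicate 2), 368 (WT replicate 1) and 301 (WT replicate 2), and without 1 of the Foxp3- arrays 301, 358, 281 and 326 in the same order. Of the 15 innate-like genes 7 had a smaller KO effect in Foxp3+ cells by this test and none a larger one. Ccl5 had an interaction of -5.10 ± 0.52 (SE, adjusted p = 0.00168): it was higher by 4.65 in KO Foxp3- cells but differed by -0.45 in Foxp3+ cells. Of the 21 regulatory T cell genes 9 had a negative interaction and 1, Gpr83, a positive one (0.68, adjusted p = 0.0484). Itgae and Nrp1, raised in KO Foxp3- cells, averaged 11.71 and 11.68 in KO Foxp3+ cells and 10.83 and 11.60 in WT Foxp3+ cells. Among the 14 migration genes 6 had a negative interaction, Cxcr5 most of all (-3.98, adjusted p = 0.000136). Of the 26 cell cycle genes 3 had a positive one.

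Genes that changed alike in both fractions were unevenly spread over the chromosomes, a pattern noticed after seeing the data and given as a description. On chromosome 9, which carries Tcf12, 28 of 533 measured genes (5.25%) were called in the same direction in both fractions. On chromosome 7 it was 27 of 741 (3.64%), and on the remaining chromosomes 104 of 7857 (1.32%). Calls in Foxp3- cells alone were more even, at 24.2% on chromosome 9, 20.5% on chromosome 7 and 20.5% on the rest. In windows of 50 neighbouring measured genes, 93 of 171 windows held no such gene, and the highest counts were 10 and 9, both on chromosome 9. The first runs between Nmnat3 and Cyb561d2 and holds Tmem108, Cpne4, Atp2c1, Rpl29, Abhd14b and Parp3. The second runs between Slc24a1 and Myo5a and holds Tcf12 itself, Pclaf, Dapk2, Rora, Mns1 and Tex9.

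**Figure D5:**
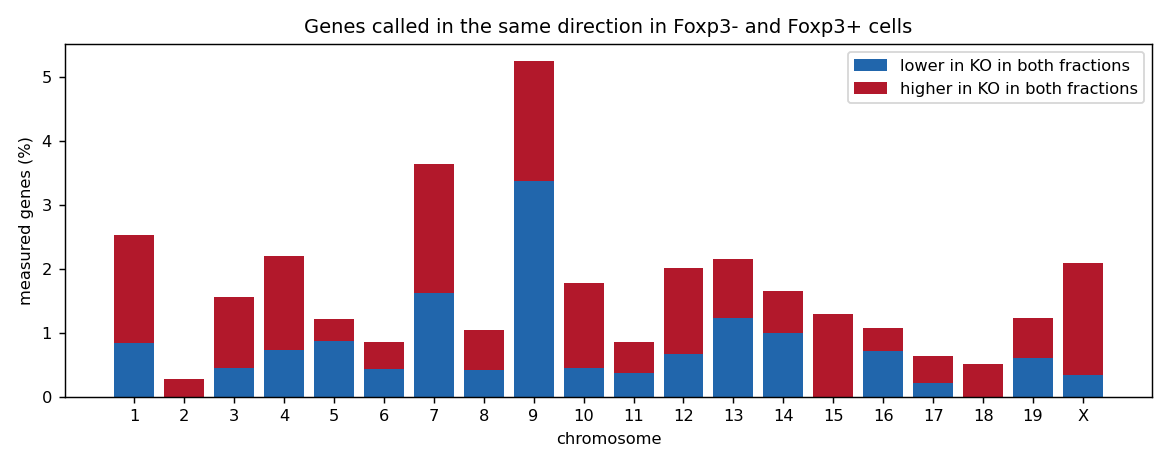
Share of measured genes on each chromosome (%) that were called in the same direction in Foxp3- and Foxp3+ cells, split by direction. Chromosome 9 stands at 5.25% and chromosome 7 at 3.64%; chromosomes other than 7 and 9 have 1.32% together.

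Several of the widest differences lie there. Of the 10 lowest genes, Tmem108, Pclaf, Mns1, Abhd14b and Atp2c1 are on chromosome 9. Mns1 had 5.47 and 5.73 in KO cells and 8.41 and 8.25 in WT cells and is the second measured gene beyond Tcf12, and Tex9, 3 genes beyond it, had 6.40 and 6.22 in KO cells and 8.44 and 8.23 in WT cells. Zfp280d, between them and Tcf12, differed by -0.11. For Rpl29, a ribosomal protein gene, 2 probes gave -5.08 and -1.30, so probes paired with a single gene differed widely. On chromosome 7 Gdpd3, Cln3 and Apobr share a window: Gdpd3 was 72.3-fold higher, while Cln3 (7.22 and 7.5 in KO, 8.45 and 8.47 in WT) and Apobr (5.45 and 5.05 in KO, 7.03 and 7.28 in WT) were lower. Of the 50 measured genes nearest to Tcf12, 14 were called in Foxp3- cells (28.0%) and 7 in the same direction in both fractions (14.0%), and of the 50 nearest to Tcf3 on chromosome 10 it was 8 (16%) and 0. In all, 74 genes differed at least 2-fold in Foxp3- cells and were called in the same direction in Foxp3+ cells, 33 lower and 41 higher; 16 of them are on chromosome 9 and 18 on chromosome 7. The strain background of the lines is not given in the sources used here, and its part in this pattern, and so in the values of Gdpd3, Tmem108, Pclaf and Mns1, was not tested.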

How the data were processed

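RNA of sorted thymocytes was amplified, labelled with biotin and hybridised to Illumina bead arrays, per the labels' protocols. The authors deposited a table giving for every array a probe's linear intensity, not normalised between arrays, next to its detection p-value. The authors also deposited log2 values for 14942 probes, all of which had p-values under 0.1 on 2 or more arrays; quantile normalisation of the log2 intensities rebuilt them to within 0.0318. The submitters' processing notes name GenomeStudio 2011.1 without settings.

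Intensities were background-corrected (normexp, offset 16, negative controls inferred from the detection p-values) and quantile-normalised by neqc in limma 3.58.1 under R 4.3.3. Probes with p under 0.05 on 2 or more arrays entered lmFit and eBayes, which estimated 4 group means from all 8 arrays across all genes (4 residual and 3.99 prior degrees of freedom, prior SD 0.135 log2). Adjusted p-values are limma's, two-sided, after Benjamini-Hochberg adjustment over 13526 probes. The SE beside a difference is the moderated one. It pools the spread within all 4 groups, so Foxp3+ arrays that disagree widen it for the Foxp3- comparison as well. An exact permutation test of 2 against 2 arrays cannot give a p below 0.333 and was not used. On simulated data over 13526 probes the fit recovered 74% of 2-fold and 98% of 4-fold differences, with 9 false calls. The simulated noise was independent between arrays and only a small share of probes was changed, so these rates need not hold for the real arrays.

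Gene names came from the platform annotation, which gave 1 gene for 12702 of the kept probes and none for 824; symbols were updated by Entrez ID to RefSeq (14010 of 14017 annotated probes matched). Of 9137 genes, 2501 had more than 1 kept probe, and 21 had probes called in opposite directions. Named genes are Tcf12 and Foxp3, the 10 highest and 10 lowest called genes, up to 4 called members per list by size of difference, and members set beside these for context, chosen after their values were seen. Where genes were picked by size of difference, separation of their arrays between genotypes is no separate result. The comparison, the lists and the tests were chosen with earlier results of these data known. Alternatives covered background correction, offset, scaling, filters, array weights, variance trend, the replicate block, the Foxp3- arrays alone and leaving out each array.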

Additional observations from a re-analysis of the deposited data

Results flagged for a closer look

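For 49 of the named genes the KO minus WT difference was not the same in the sorted fractions by a test of the difference itself (limma, adjusted p under 0.05). The value in brackets is the log2 difference of Foxp3+ cells less the one of Foxp3- cells, so a negative value means that the KO effect was lower in Foxp3+ cells. 39 of these values were negative and 10 positive. Beside them stands the fact that erythroid, MHC class II and macrophage markers were brighter on the Foxp3+ arrays of both genotypes. The part of these markers in the values was not tested. Most named genes were picked by the size of their difference in Foxp3- cells, which the bracketed value subtracts. Raised genes therefore lean to negative values and lowered genes to positive ones. Over all genes 5.36% were called by this test.

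Among effector and migration genes the values were Ccl5 (-5.10), Cxcr5 (-3.98), Ccr6 (-3.04), Gzmk (-3.01), Cxcr3 (-2.39), Ifng (-2.05), Itgae (-1.68), Eomes (-1.65), Fasl (-1.45), Cd160 (-1.26) and Cd44 (-0.85). Ccl5 averaged 11.35 in KO and 6.70 in WT Foxp3- cells, and 9.03 in KO and 9.48 in WT Foxp3+ cells. Cytokine receptors and their regulators gave Socs2 (-2.80), Socs3 (-2.58), Cish (-1.57), Stat4 (-1.02), Il10ra (-1.25), Il10rb (-1.39), Il18r1 (-1.30) and Ifngr1 (-1.06). Socs3 was higher by 1.58 in KO Foxp3- cells and lower by 1.0 in KO Foxp3+ cells, and both were called.

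Genes that mark regulatory or mature cells gave Nrp1 (-1.85), Nt5e (-1.80), Lag3 (-2.87), Ly6c1 (-2.35), H2-D1 (-1.06) and H2-K1 (-0.86). Immediate early, NF-κB and death genes gave Casp1 (-3.14), Ier3 (-2.99), Fosb (-2.33), Klf6 (-0.93), Traf1 (-1.03) and Bik (-0.98). Ier3 averaged 6.33 in KO and 4.65 in WT Foxp3- cells, and 5.18 in KO and 6.49 in WT Foxp3+ cells. Markers of other cells and sex-linked markers gave Lyz2 (-3.41), Hba-a1 (-2.75), H2-Ab1 (-2.47), H2-Aa (-2.23), H2-Eb1 (-2.07) and Xist (2.39). Lyz2 was higher by 1.37 in KO Foxp3- cells and lower by 2.04 in KO Foxp3+ cells. Further genes with a lower KO effect in Foxp3+ cells were Sostdc1 (-3.01), Golm1 (-2.68) and Dmbt1 (-1.80).

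Positive values came from genes that were lower in KO Foxp3- cells, Pclaf (1.67), Igf2bp3 (1.48), Tmem108 (1.22), Etv5 (1.0), Egr1 (0.88), Rsad2 (0.78), Isg15 (0.77) and Fyn (0.74), and from Gdpd3 (0.98), which was higher in KO cells of both fractions, by 6.18 in Foxp3- and 7.15 in Foxp3+ cells.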

How the results depend on the processing

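Leaving out 1 of the 8 arrays, the probes called ranged from 1115 to 3599, those higher in KO from 604 to 1712, those lower from 511 to 1887, the share higher from 47.6% to 54.2% and the interaction from 281 to 1099; fewer arrays leave fewer degrees of freedom. Median scaling called 926 probes higher (36.4% of calls), and cyclic loess gave 52.7% higher, so which direction held more calls (1395 higher and 1467 lower) depended on the setting: cyclic loess gave 1562 higher and 1402 lower. At 2-fold or more, median scaling turned 333 higher and 286 lower into 297 and 384. A variance trend called 1092 probes for the interaction. The 2-fold counts moved most with the background correction: 101 probes were higher and 56 lower without background correction, and likewise on the authors' processed values, and 178 and 117 with an offset of 50; subtracting background and a smaller offset widen the log2 differences of dim probes by construction. None of the 105 called named genes changed the sign of its difference under an alternative run, and 68 were called under all 20 alternatives. The labels' replicate numbers did not pair the arrays: deviations of same-numbered arrays correlated between -0.0295 and 0.0998, and with the replicate number as a block 2604 probes were called. Signal over background sets a limit at the lowest detected signal of each Foxp3- array, 4.72 to 4.83 log2 units.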

Other observations

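Of 15 measured BCL-2 family and death genes 4 were called higher in KO cells and 3 lower, with a median difference of 0.01, against 0.02 over all genes; of all genes 11.7% were called higher and 9.03% lower. Beside Fasl, the pro-apoptotic genes Bbc3 (Puma; 9.15 and 9.14 in KO, 8.06 and 8.19 in WT) and Bik (5.83 and 6.01 in KO, 4.58 and 4.5 in WT) were higher. Bbc3 was 2.04-fold higher by its brightest probe, while its other probes differed by 0.57 (called) and 0.28 (not called), and Bik, not detected in WT cells, at least 2.27-fold. Bcl2l1, the gene of the survival factor Bcl-xL, was 1.54-fold lower, and Bcl2 and Mcl1 differed by 0.08 and 0.13 without a call. The 3 lower calls of this list were 2, 1, 0 and 2 without KO replicate 1, KO replicate 2, WT replicate 1 and WT replicate 2. Of 18 measured interferon-stimulated genes 2 were called higher and 2 lower (median -0.03), close to the 20.7% of all genes called in either direction. Isg15, a ubiquitin-like modifier, was 2.32-fold lower (8.94 and 8.93 in KO, 10.18 and 10.12 in WT), and Rsad2 (viperin) was 1.76-fold lower. Ifit3 and Irf1, the higher ones, lost their calls without any 1 of the 4 Foxp3- arrays (adjusted p between 0.0513 and 0.0837, and between 0.0918 and 0.149), and 1 of 3 Ifit3 probes and 1 of 5 Irf1 probes were called.

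Of 16 measured glycolysis genes 2 were called in each direction, close to the 11.7% and 9.03% of all genes; 1 was called higher without any 1 of the 4 Foxp3- arrays, and 1 lower without KO replicate 2 or WT replicate 1. Pkm, pyruvate kinase, had 10.57 and 10.51 in KO cells and 11.88 and 11.85 in WT cells, 2.51-fold lower, while Aldoc, an aldolase, was at least 1.96-fold higher. Of 12 measured Notch pathway genes 4 were called higher and none lower, and 1, 2, 1 and 1 without KO replicate 1, KO replicate 2, WT replicate 1 and WT replicate 2. Nrarp, a Notch target and feedback regulator, had 6.87 and 7.16 in KO cells and 5.98 and 5.97 in WT cells, 2.06-fold higher. Of 9 measured T follicular helper genes 3 were called higher, among them Slamf6 (6.43 and 7.09 in KO, 4.92 and 5.06 in WT), and Bcl6, the lineage factor, differed by -0.37 without a call (adjusted p = 0.0705). Single genes were called in the TGF-β (Smurf1, lower) and heat shock (Hspa1a, 3.17-fold higher) lists, of 10 and 9 measured. Smurf1 was not called without any 1 of the 4 Foxp3- arrays, at differences between -0.61 and -0.50. Hspa1a was not called without KO replicate 2 or WT replicate 1, and its difference stayed between 1.61 and 1.72. Of 5 measured γδ T cell genes Maf was called higher and Sox13 and Etv5 lower. Without KO replicate 1, 1 was called higher and 1 lower, and without any 1 of the other Foxp3- arrays 0 in either direction. Of 7 measured double-positive thymocyte genes Cd8b1 was called, lower.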
